A study of Mus musculus with 11 samples.

Results

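The genes described here are the DNA replication and S-phase genes of the mouse stomach, a list of 41 symbols that covers origin licensing, the replicative helicase, the polymerases, nucleotide supply, histone supply and the switch from G1 to S phase. A gene was taken from probe sets that name it alone, and where it had several, from the one with the highest mean over the whole-stomach arrays. By this rule 39 of the 41 were measured, out of 22180 genes in all. Rfc4, a clamp loader subunit, and Ccne2, cyclin E2, appear only in probe sets that name several genes, and their values were not used. No filter on low values was set, so none of the 39 was lost to one.

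Total RNA from adult C57Bl/6 mice was hybridised to Affymetrix arrays, and the values are log2 levels made by the authors with RMA (robust multi-array average). Whole stomach came from 4 groups: 2 arrays of mice given sunflower oil as vehicle, 2 of mice given tamoxifen, 3 of mice given rapamycin, and 2 of mice given both drugs, here called the combination. The daily intraperitoneal dose was 5 mg tamoxifen per 20 g of body weight over 3 days, and 0.6 mg rapamycin per 20 g over 10 days. Tamoxifen at high dose is known to injure parietal cells, the acid-secreting cells of the stomach, and rapamycin inhibits the growth-controlling kinase complex mTORC1. It was not stated whether the mice given rapamycin also received oil, or whether each array held RNA of a single mouse; the labels call the arrays biological replicates, and p-values measure only the spread between these samples. Array medians of the 9 whole stomachs lay between 4.95 and 5.09. Another 2 arrays held isolated parietal cells and the remaining stomach cells, with medians of 3.67 and 3.68, so they were set only against each other.

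Replication starts when the origin recognition complex, Cdc6 and Cdt1 load the Mcm2-7 ring onto DNA in G1. Cdc45 and the GINS complex then turn the ring into a running helicase, polymerase alpha with primase lays down primers, and polymerases epsilon and delta extend them on the Pcna clamp. Ribonucleotide reductase and the thymidylate enzymes supply the nucleotides, and chromatin assembly factor 1 packs the new DNA. Most of these genes are transcribed from late G1 by E2F factors, so their RNA is low in resting tissue. In the stomach, dividing cells are known to lie chiefly in the isthmus of the gland.

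The promoters show what several of these genes have in common, and short stretches around the matched letters are printed for that reason. Of the 39 genes, 33 had a window in the RefSeq table of assembly GRCm38.p6, which runs from 250 bases before to 50 bases after a gene's start. A gene could have several windows, and each was searched on both strands for 4 octamers, TTTCCCGC, TTTCGCGC, TTTGCCGC and TTTGGCGC, the letters of a textbook E2F element. The stretches give the bases before the start in 9 members, 5′ to 3′ on the gene's own strand, with matches in capitals; where octamers on opposite strands overlap, one run of capitals covers both.
Orc1, chr4:108579407-108579453, plus strand: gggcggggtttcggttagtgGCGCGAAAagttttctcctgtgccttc
Cdc6, chr11:98907993-98908040, plus strand: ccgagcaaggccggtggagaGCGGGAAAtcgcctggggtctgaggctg
Mcm5, chr8:75109336-75109387, plus strand: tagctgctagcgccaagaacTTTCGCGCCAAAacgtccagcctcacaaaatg
Mcm6, chr1:128359725-128359835, minus strand: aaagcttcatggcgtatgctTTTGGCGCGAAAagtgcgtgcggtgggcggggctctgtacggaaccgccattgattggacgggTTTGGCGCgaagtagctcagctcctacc
Mcm7, chr5:138172021-138172068, minus strand: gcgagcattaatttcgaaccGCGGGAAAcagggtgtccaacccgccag
Gins3, chr8:95633498-95633545, plus strand: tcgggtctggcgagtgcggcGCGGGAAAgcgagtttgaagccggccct
Rfc3, chr5:151651209-151651238, minus strand: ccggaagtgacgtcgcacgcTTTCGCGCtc
Pola1, chrX:93632266-93632313, minus strand: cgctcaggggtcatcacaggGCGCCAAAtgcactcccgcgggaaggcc
Uhrf1, chr17:56304108-56304155, plus strand: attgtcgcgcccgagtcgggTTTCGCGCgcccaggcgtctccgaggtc
Mcm6 held 3 matches and Mcm5 held 2, while the other printed stretches held 1 each. In all, 14 of the 33 members with a window (42.4%) held an octamer, against 554 of 16990 genes with a window (3.261%). By role these were 3 of 4 licensing genes, 5 of 8 helicase genes, 3 of 5 polymerase and primase genes, 1 of 3 clamp and loader genes, 1 of 2 lagging strand genes, 1 of 4 chromatin genes, 0 of 5 nucleotide supply genes and 0 of 2 G1/S control genes. Of other letters searched on both strands, CCAAT was in 57.6% of member genes and 41.6% of all genes, and TTTGAA, the CHR element of many mitotic genes, in 12.1% and 17.8%. A match describes letters only. It does not show that a factor binds there. Only exact letters were searched, so a gene without a match may still hold a site. The median GC content of the windows was 60.2% for member genes and 56.3% for all genes.

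The member genes stood higher in tamoxifen-treated stomach, with or without rapamycin. Against vehicle, the median log2 change of the 39 genes with tamoxifen was 0.83, a 1.77-fold higher level, where the median over all genes was -0.02. All 39 estimates lay above 0, as did 46.4% of all genes. By limma with Benjamini-Hochberg adjustment over all genes (adjusted p under 0.05, a called gene in what follows), 18 rose and 0 fell, against 0.933% of all genes called higher and 0.784% called lower; a fit of only these 2 groups called 0 members and 0 of all genes, where before adjustment p was under 0.05 for 29 members and 1318 genes in all. In 37 members both tamoxifen arrays lay above both vehicle arrays, which held for 13.4% of all genes. Because these are whole stomachs, more dividing cells and more of each RNA per cell cannot be told apart.

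With rapamycin in both arms, the combination against rapamycin alone, the median change was 0.69, or 1.61-fold. Again all 39 estimates were above 0 (47.6% of all genes), and 16 members rose and 0 fell (1.13% of all genes called higher and 1.32% lower). A fit of only these 2 groups called 25 members, where 568 of all genes were called higher and 534 lower. In 38 members the groups did not overlap (18.7% of all genes). This contrast shares no array with the first. In both contrasts 13 members were called (0.532% of all genes), 5 were called only without rapamycin, 3 only with it and 18 in neither; these labels do not show that a gene's rise differed between the arms. In 36 members both contrasts were free of overlap (7.2% of all genes), and in 34 all 4 tamoxifen-treated arrays lay above all 5 others (4.99%). The exceptions were Orc1, Gins3, Gins4, Dut and Slbp.

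Averaging the change over both arms gave the smallest error. There 31 of the 39 rose and 0 fell, against 3.24% of all genes called higher and 2.61% called lower, with a median of 0.73. Not called were Orc1, Gins3, Gins4, Pole2, Pold1, Dut, Slbp and E2f1. Of the 31, 21 stayed called in each of the 9 fits that left out 1 array. The 2-array contrasts were less steady: leaving out any 1 of the 9 arrays took the 18 calls of tamoxifen against vehicle to between 4 and 9, with 4 without either vehicle array, 9 without the first tamoxifen array, 6 without the second, 8 without any 1 rapamycin array and 9 without either combination array. The 16 calls of the combination against rapamycin became 0 without the first combination array, 1 without the second, and 6, 4 and 4 without rapamycin array 1, 2 or 3.

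**Figure D1:**
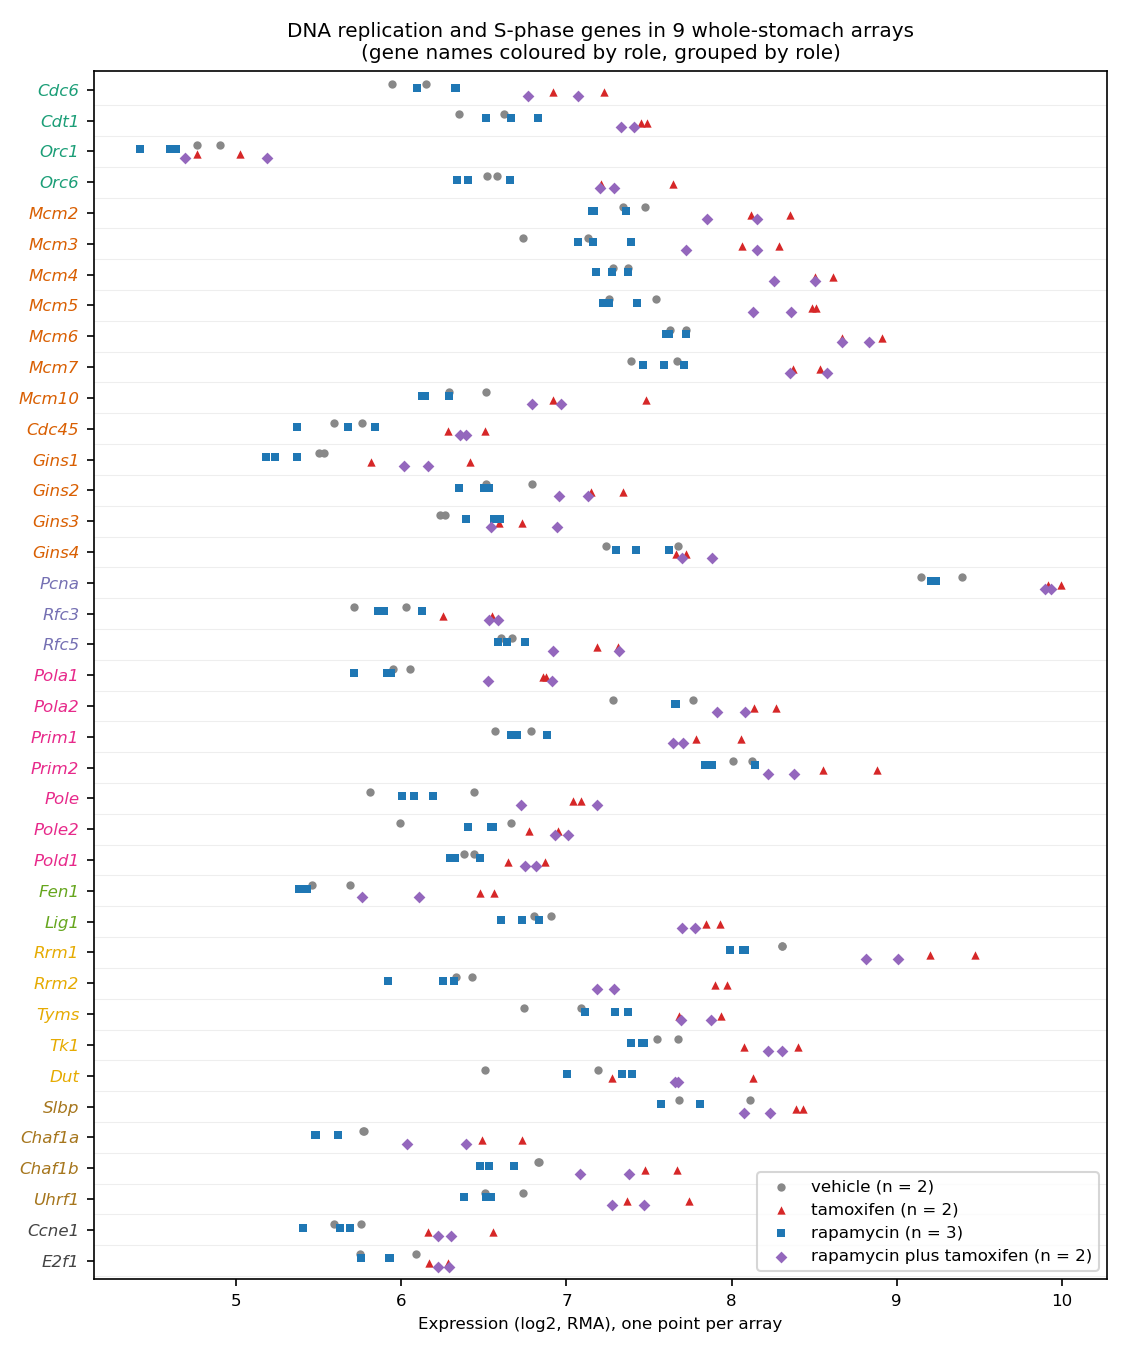
Log2 level (x axis) of each of the 39 genes (rows, grouped and coloured by role) in the 9 whole-stomach arrays, 1 point per array with shape and colour by treatment. The 4 tamoxifen-treated points lie to the right of the other 5 in 34 of the 39 rows, and Orc1, Gins3, Gins4, Dut and Slbp are the rows where they do not.

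Among the 4 origin licensing genes, Cdt1, which brings the Mcm2-7 ring to the origin, read 6.62 and 6.35 in the vehicle arrays, 7.45 and 7.49 with tamoxifen, 6.66, 6.83 and 6.51 with rapamycin and 7.41 and 7.33 in the combination. The tamoxifen-treated arrays were all above the rest. Cdt1 rose by 0.99 ± 0.16 with tamoxifen (adjusted p = 0.022) and by 0.70 ± 0.14 when rapamycin was given too (adjusted p = 0.0415); here and below the value after ± is the standard error of the limma fit, with 2 arrays in each group and 3 in the rapamycin group. Cdc6, the ATPase that works with Cdt1, read 6.15 and 5.94 with vehicle, 7.22 and 6.92 with tamoxifen, 6.10, 6.32 and 6.33 with rapamycin and 7.07 and 6.77 with both. Its groups did not overlap in either contrast; the rise of 1.02 ± 0.18 without rapamycin was called (adjusted p = 0.0283) and the change of 0.67 ± 0.16 with it was not (adjusted p = 0.0782). For Orc6, the smallest origin recognition subunit, the levels were 6.52 and 6.58 in vehicle, 7.21 and 7.65 in tamoxifen, 6.34, 6.66 and 6.40 in rapamycin and 7.29 and 7.20 in combination arrays. The change of 0.88 ± 0.18 without rapamycin just missed the threshold (adjusted p = 0.0507) and that of 0.78 ± 0.16 with it passed (adjusted p = 0.0466); the levels again did not overlap. Orc1, the ATPase subunit of the origin recognition complex, was the member that moved least with tamoxifen alone. Its levels were 4.90 and 4.76 with vehicle, 5.02 and 4.76 with tamoxifen, 4.42, 4.60 and 4.64 with rapamycin and 5.19 and 4.69 with both. Vehicle and tamoxifen arrays overlapped, with a difference of 0.06 ± 0.19 (adjusted p = 0.987), while the combination lay above rapamycin by 0.39 ± 0.17 (adjusted p = 0.373).

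The 12 helicase genes had a median change of 0.81 with tamoxifen and 0.76 when rapamycin was given too. Of the 12, 6 and 5 were called higher, against 0.933% and 1.13% of all genes. Every one of the 6 ring subunits Mcm2 to Mcm7 was called higher with tamoxifen. In the combination against rapamycin all but Mcm3 were called, and Mcm3 also lay higher there without being called. Mcm4 read 7.28 and 7.37 with vehicle, 8.50 and 8.61 with tamoxifen, 7.28, 7.37 and 7.18 with rapamycin and 8.50 and 8.26 in the combination. Its change was 1.23 ± 0.14 without rapamycin (adjusted p = 0.00862) and 1.10 ± 0.13 with it (adjusted p = 0.0049). The rapamycin arrays lay at or just below the vehicle levels, and the lowest tamoxifen-treated array stood 0.89 above the highest of the other 5. Mcm6 showed nearly the same: 7.63 and 7.72 with vehicle, 8.67 and 8.91 with tamoxifen, 7.60, 7.72 and 7.62 with rapamycin, 8.83 and 8.67 with both, or rises of 1.11 ± 0.14 (adjusted p = 0.0105) and 1.10 ± 0.13 (adjusted p = 0.00475). In Mcm5 the values were 7.54 and 7.26, then 8.51 and 8.49 with tamoxifen, 7.43, 7.26 and 7.22 with rapamycin and 8.36 and 8.13 with the combination, rises of 1.10 ± 0.16 (adjusted p = 0.0152) and 0.94 ± 0.14 (adjusted p = 0.0124). In each of these 3 genes the arrays with and without tamoxifen were clearly apart.

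Mcm3 gave the lowest interaction estimate of all members. It read 7.13 and 6.74 with vehicle, 8.06 and 8.29 with tamoxifen, 7.39, 7.07 and 7.16 with rapamycin and 8.16 and 7.73 with both drugs. The rise of 1.24 ± 0.21 without rapamycin (adjusted p = 0.025) stood beside 0.73 ± 0.19 with it (adjusted p = 0.0962); the second vehicle array was the lowest of all 9, and the vehicle arrays differed by 0.39. Mcm2 changed by 0.83 ± 0.16 and 0.77 ± 0.15 and Mcm7 by 0.92 ± 0.16 and 0.88 ± 0.15, without and with rapamycin, all 4 of them called. Of the activating factors, Mcm10, Cdc45 and the GINS subunits Gins1 to Gins4, none was called in either single contrast, and Mcm10, Cdc45, Gins1 and Gins2 were called in the average of both (adjusted p from 0.00856 to 0.0146). Gins1 read 5.50 and 5.53 with vehicle, 5.82 and 6.42 with tamoxifen, 5.23, 5.37 and 5.18 with rapamycin and 6.16 and 6.02 in the combination. It lay apart in both contrasts, by 0.60 ± 0.20 without rapamycin and 0.83 ± 0.18 with it (adjusted p = 0.234 and 0.0504). Gins4 and Gins3 moved least of the helicase genes, with averages of 0.29 ± 0.12 and 0.32 ± 0.11; in Gins4 one vehicle array exceeded the first tamoxifen array, and in Gins3 the second combination array was below 2 of the rapamycin arrays.

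Of the clamp and its loader, Pcna, the ring that holds the polymerase on DNA, was called in both contrasts. Its levels were 9.15 and 9.39 with vehicle, 9.92 and 9.99 with tamoxifen, 9.24, 9.24 and 9.21 with rapamycin and 9.89 and 9.94 with both. The 3 rapamycin arrays lay within 0.03 of each other, and every tamoxifen-treated array exceeded every array without tamoxifen. Pcna rose by 0.69 ± 0.14 (adjusted p = 0.0445) without rapamycin and 0.69 ± 0.12 with it (adjusted p = 0.0257). The loader subunits Rfc5 and Rfc3 were not called in a single contrast, though their groups did not overlap. Rfc5 read 6.67 and 6.61 with vehicle, 7.31 and 7.19 with tamoxifen, 6.64, 6.59 and 6.75 with rapamycin and 7.32 and 6.92 with both, differences of 0.61 ± 0.16 (adjusted p = 0.123) and 0.46 ± 0.15 (adjusted p = 0.184). Rfc3 read 6.03 and 5.72, 6.55 and 6.25, 5.90, 5.86 and 6.13 and 6.59 and 6.53 in the same order, differences of 0.53 ± 0.17 (adjusted p = 0.238) and 0.60 ± 0.16 (adjusted p = 0.105). Averaged over both arms, all 3 of these genes rose.

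The 7 polymerase and primase genes had medians of 0.68 without and 0.47 with rapamycin, and Prim1 and Pola1 were called in both contrasts. Prim1, the catalytic primase subunit, read 6.57 and 6.78 in vehicle, 7.78 and 8.06 in tamoxifen, 6.88, 6.70 and 6.67 in rapamycin and 7.64 and 7.70 in combination arrays. That is a rise of 1.24 ± 0.16 (adjusted p = 0.01) and one of 0.93 ± 0.14 under rapamycin (adjusted p = 0.0134), and both combination arrays lay below both tamoxifen arrays. Pola1, the catalytic subunit of polymerase alpha, read 5.95 and 6.05 with vehicle, 6.86 and 6.88 with tamoxifen, 5.91, 5.94 and 5.71 with rapamycin and 6.91 and 6.52 with both. Its rises were 0.87 ± 0.16 (adjusted p = 0.039) and 0.86 ± 0.15 (adjusted p = 0.0223). Pole, the catalytic subunit of the leading-strand polymerase epsilon, read 6.44 and 5.81 with vehicle, 7.09 and 7.04 with tamoxifen, 6.19, 6.08 and 6.01 with rapamycin and 7.19 and 6.73 with both. The vehicle arrays of Pole were 0.63 apart, and neither 0.94 ± 0.23 (adjusted p = 0.0912) nor 0.86 ± 0.21 (adjusted p = 0.0748) was called. Pola2 and Prim2, the partner subunits of Pola1 and Prim1, were called only in the average. Pole2 and Pold1, subunits of polymerases epsilon and delta, were not called there either (averages 0.50 ± 0.14 and 0.38 ± 0.10, adjusted p = 0.0827 and 0.0533).

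On the lagging strand, Lig1, the ligase that seals Okazaki fragments, and Fen1, the nuclease that trims their flaps, are the 2 measured members. Lig1 read 6.91 and 6.80 with vehicle, 7.93 and 7.85 with tamoxifen, 6.84, 6.73 and 6.61 with rapamycin and 7.70 and 7.78 with both. It rose by 1.04 ± 0.14 (adjusted p = 0.0116) and 1.02 ± 0.12 (adjusted p = 0.00539), nearly the same amount, with no overlap. Fen1 read 5.46 and 5.69 with vehicle, 6.47 and 6.56 with tamoxifen, 5.38, 5.43 and 5.42 with rapamycin and 6.11 and 5.76 with both. The combination arrays lay between the arrays without tamoxifen and those with tamoxifen alone. The rise of 0.95 ± 0.16 without rapamycin was called (adjusted p = 0.0249) and the difference of 0.53 ± 0.14 with it was not (adjusted p = 0.116).

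Nucleotide supply held Rrm2, the member with the highest change with tamoxifen against vehicle; in the combination against rapamycin Mcm4 and Mcm6 changed more. Rrm2, which encodes the regulated subunit of ribonucleotide reductase, read 6.33 and 6.43 in the vehicle arrays, 7.97 and 7.90 with tamoxifen, 6.32, 5.92 and 6.25 with rapamycin and 7.29 and 7.19 with both. The combination arrays were higher than every array without tamoxifen and lower than both tamoxifen arrays. Rrm2 rose by 1.55 ± 0.16 without rapamycin (adjusted p = 0.0065), a 2.94-fold change, and by 1.07 ± 0.15 with it (adjusted p = 0.00793), a 2.10-fold change. Rrm1, the large subunit, read 8.30 and 8.30 with vehicle, 9.20 and 9.47 with tamoxifen, 8.07, 8.08 and 7.99 with rapamycin and 9.01 and 8.81 with both. Its rises were 1.03 ± 0.15 (adjusted p = 0.0146) and 0.87 ± 0.13 (adjusted p = 0.0133), and again the combination lay between. Tk1, the thymidine salvage kinase, read 7.68 and 7.55 with vehicle, 8.40 and 8.07 with tamoxifen, 7.39, 7.47 and 7.46 with rapamycin and 8.22 and 8.31 with both, so tamoxifen and combination arrays overlapped. Its change of 0.63 ± 0.15 missed the threshold (adjusted p = 0.0898) and that of 0.82 ± 0.14 passed it (adjusted p = 0.0182). Tyms, thymidylate synthase, was called without rapamycin (0.89 ± 0.18, adjusted p = 0.0445) and not with it (0.52 ± 0.16, adjusted p = 0.162). Dut, which removes dUTP, had the largest standard errors of all members, at 7.19 and 6.51 with vehicle, 8.13 and 7.27 with tamoxifen, 7.39, 7.002 and 7.33 with rapamycin and 7.66 and 7.67 with both. The replicates of Dut were 0.68 apart with vehicle and 0.85 apart with tamoxifen, and its changes of 0.85 ± 0.30 and 0.42 ± 0.28 were not called (adjusted p = 0.299 and 0.601).

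In the chromatin group, Uhrf1, which guides methylation of new DNA, read 6.51 and 6.73 with vehicle, 7.37 and 7.74 with tamoxifen, 6.51, 6.38 and 6.55 with rapamycin and 7.28 and 7.47 with both. It rose by 0.93 ± 0.17 (adjusted p = 0.0337) and 0.89 ± 0.16 (adjusted p = 0.0223), and the tamoxifen-treated arrays stood above all those without tamoxifen. Chaf1a, the large subunit of chromatin assembly factor 1, read 5.77 and 5.77 with vehicle, 6.49 and 6.73 with tamoxifen, 5.61, 5.48 and 5.48 with rapamycin and 6.39 and 6.03 with both, changes of 0.84 ± 0.16 (adjusted p = 0.0422) and 0.69 ± 0.15 (adjusted p = 0.0504). Chaf1b, its partner, read 6.83 and 6.83, 7.48 and 7.67, 6.68, 6.53 and 6.48 and 7.38 and 7.08 in the same order, changes of 0.74 ± 0.15 (adjusted p = 0.0544) and 0.67 ± 0.14 (adjusted p = 0.0471). For both subunits the 3 rapamycin arrays lay below the 2 vehicle arrays and the combination arrays below the tamoxifen arrays. Slbp, which binds histone mRNA, averaged 0.47 ± 0.12 and was not called (adjusted p = 0.0542).

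Both measured regulators of the G1/S switch averaged below the members' median. Ccne1, cyclin E1, read 5.59 and 5.76 with vehicle, 6.16 and 6.56 with tamoxifen, 5.63, 5.69 and 5.40 with rapamycin and 6.22 and 6.30 with both, changes of 0.68 ± 0.17 (adjusted p = 0.108) and 0.69 ± 0.16 (adjusted p = 0.0668). E2f1, an activating E2F factor, read 6.09 and 5.75, 6.28 and 6.17, 5.92, 5.75 and 5.93 and 6.22 and 6.29 in that order, changes of 0.31 ± 0.15 (adjusted p = 0.563) and 0.39 ± 0.14 (adjusted p = 0.253). In both genes the groups did not overlap. The E2f1 vehicle arrays were 0.34 apart, more than its change without rapamycin.

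Whether rapamycin damped the rise was asked by the interaction, the change with tamoxifen under rapamycin minus the change without it. Its median over the 39 genes was -0.08, against -0.01 over all genes, and 0.01 after another round of quantile normalization, so the sign of this median depended on the scaling. In the deposited scale 30 of the 39 estimates were below 0, against 51.8% of all genes. By limma no gene was called, among the members or among all genes (0.0% higher and 0.0% lower), and no member reached an unadjusted p of 0.05, against 1.27% of all genes higher and 1.56% lower. All 39 of the 95% intervals held 0. These intervals were wide: for Mcm3 the estimate was -0.50 (95% interval -1.14 to 0.13), for Rrm2 -0.48 (-0.98 to 0.01) and for Dut -0.43 (-1.36 to 0.50). At the other end were Orc1 at 0.33 (-0.26 to 0.91), Gins1 at 0.23 (-0.37 to 0.83) and Tk1 at 0.20 (-0.26 to 0.65). Leaving out the first combination array moved the median to -0.20, and leaving out the second combination array gave the value nearest 0 of the 9 such fits, -0.01.

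By role, the median interaction was -0.19 for licensing, -0.05 for the helicase group, 0.00 for the clamp and loader, -0.07 for polymerases and primase, -0.22 for lagging strand genes, -0.37 for nucleotide supply, -0.08 for chromatin and 0.04 for G1/S control. The nucleotide supply value came from 5 genes, of which Tk1 alone lay above 0. Differences between roles were not tested.

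**Figure D2:**
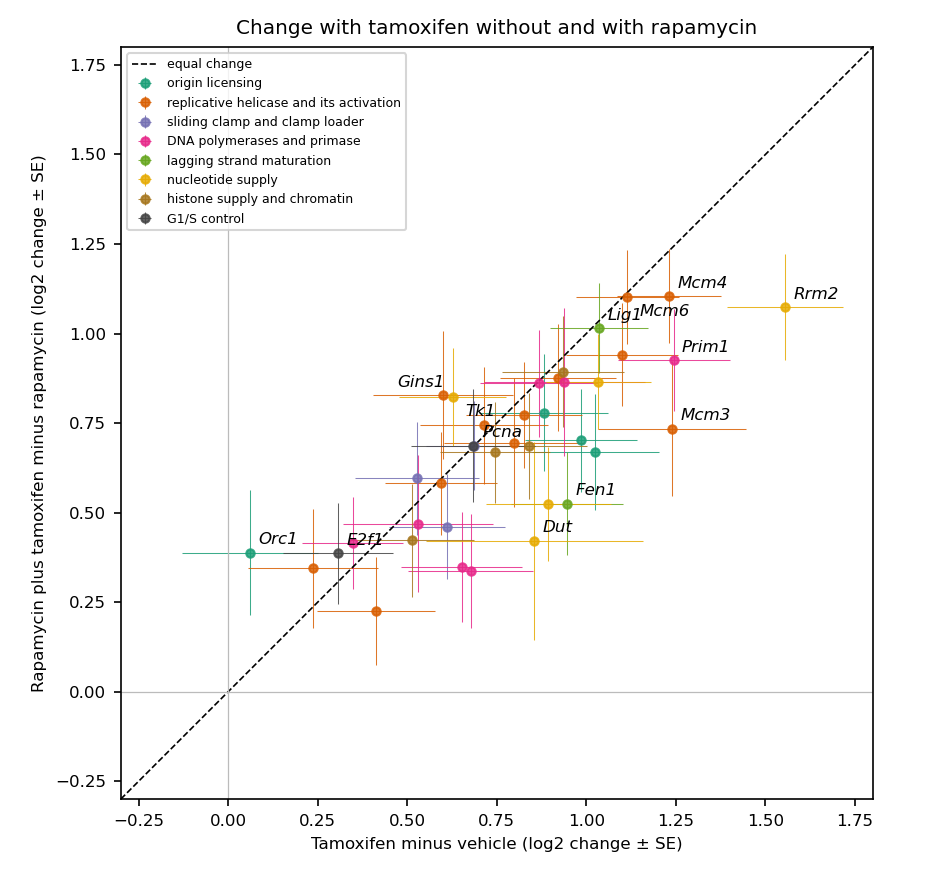
Log2 change of each of the 39 genes with tamoxifen against vehicle (x axis) and with the combination against rapamycin alone (y axis), with bars of 1 SE from limma and colours by role; the dashed line marks equal changes. All 39 points lie above 0 on both axes, and 30 of them lie below the line, Rrm2 and Mcm3 among those farthest from it.

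**Figure D3:**
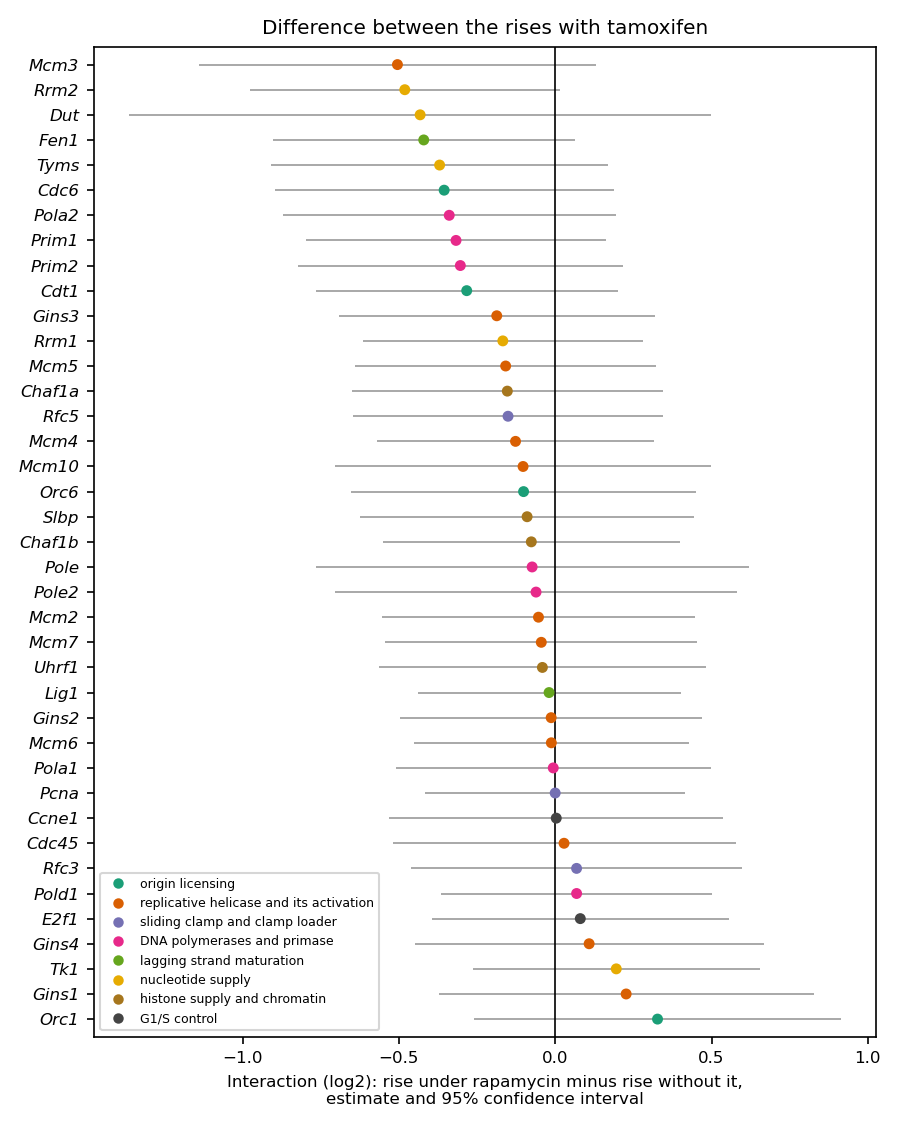
Interaction estimate of each of the 39 genes in log2 units (x axis) with its 95% interval from limma, ordered by estimate and coloured by role; the vertical line marks 0. Every interval holds 0, from Mcm3 at -0.50 to Orc1 at 0.33.

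Set directly against tamoxifen alone, the combination had a median difference of -0.15 (all genes -0.02), with 30 members below 0 (54.0% of all genes). By limma none was called (0.0% of all genes higher and 0.0% lower), and 5 members were lower at an unadjusted p under 0.05, against 3.31% of all genes. These were Rrm2 (-0.70 ± 0.16), Fen1 (-0.58 ± 0.16), Rrm1 (-0.43 ± 0.15), Prim2 (-0.42 ± 0.17) and Chaf1a (-0.40 ± 0.16), with adjusted p between 0.805 and 0.814. In 14 members both combination arrays lay below both tamoxifen arrays, a share of 39 genes to be read against 20.3% of all genes. The first combination array read higher than the second in 26 of 39 members (50.7% of all genes), and without the second the median difference was -0.06. This contrast shares arrays with both tamoxifen contrasts.

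With rapamycin alone the members showed no called difference from vehicle. Their median difference was -0.05, and by limma no member was called, against 0.00902% of all genes called higher and 0.0406% lower; at an unadjusted p under 0.05 the count was also 0. In 10 members the 3 rapamycin arrays lay below both vehicle arrays (14.3% of all genes), and in 2, Gins3 and Tyms, above them (12.7%). The lowest difference was Orc1 at -0.28 ± 0.17 and the highest Dut at 0.40 ± 0.28. With both drugs against neither, the median was 0.65 and 8 members rose, against 0.41% of all genes called higher: Cdt1, Mcm4, Mcm5, Mcm6, Mcm7, Prim1, Lig1 and Rrm2. Without rapamycin array 1, 2 or 3 that count became 4, 2 and 3, with 39, 30 and 33 of all genes called higher instead of 91. Calls were fewest without a vehicle or a combination array. With 1 array left out the median ranged from 0.59 to 0.68.

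The wider pathway was read from lists drawn up alongside the members. Of 38 other replication genes, 5 rose with tamoxifen (0.933% of all genes) and 6 with the combination against rapamycin (1.13%), and in the average 20 rose and 0 fell (3.24% and 2.61% of all genes), with a median of 0.46. Lowest p-values went to Clspn, which relays replication stress to the checkpoint kinase (0.79 ± 0.09, adjusted p = 0.00167), Ticrr, which helps to recruit Cdc45 (1.01 ± 0.13, adjusted p = 0.00301), the polymerase delta subunit Pold3 (0.70 ± 0.10, adjusted p = 0.00342) and Wdhd1, which ties the helicase to polymerase alpha (0.94 ± 0.13, adjusted p = 0.00378). At the low end Mcm9, a helicase of DNA repair, averaged -0.04 ± 0.12, and Pole4, a small subunit of polymerase epsilon, 0.00 ± 0.09. Of 23 other G1/S regulators, 7 rose and 2 fell in the average, to be read against the same 3.24% and 2.61%. Ccna2, the cyclin of S and G2 phase, rose by 1.05 ± 0.09 (adjusted p = 0.000508), Rbl1, the p107 pocket protein, by 0.71 ± 0.10 (adjusted p = 0.0041), Ccnd1, cyclin D1, by 0.65 ± 0.10 (adjusted p = 0.00655) and E2f3, another activating E2F factor, by 0.83 ± 0.14 (adjusted p = 0.00783). The pocket protein of resting cells, Rbl2, fell by 0.58 (adjusted p = 0.0266), and Rrm2b, the reductase subunit used outside S phase, by 0.49 (adjusted p = 0.05, just under the threshold before rounding).

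Mitosis genes, which act after replication, are set beside the members because both groups mark dividing cells. For 17 of them the median changes were 1.01 with tamoxifen (12 called higher, 0.933% of all genes) and 1.04 with the combination against rapamycin (15 called higher, 1.13%), with a median interaction of 0.08. With rapamycin alone their median was -0.52 and all 17 lay below both vehicle arrays without overlap (14.3% of all genes), where 10 of the 39 replication genes did. None of the 17 was called by limma, and 15 were lower at an unadjusted p under 0.05, against 4.6% of all genes. The combination stood 0.49 below tamoxifen in the median (log2 change -0.49), against -0.15 for the replication genes. The difference between the lists was not tested. Averaged over the 39 replication genes, the vehicle arrays read 6.76 and 6.69, the tamoxifen arrays 7.50 and 7.53, the rapamycin arrays 6.72, 6.68 and 6.65 and the combination arrays 7.43 and 7.29. All 5 arrays without tamoxifen thus lay between 6.65 and 6.76. For mitosis genes the means were 7.19 and 7.23 with vehicle, 8.11 and 8.26 with tamoxifen, 6.69, 6.63 and 6.59 with rapamycin and 7.73 and 7.63 with both, which puts every rapamycin array below both vehicle arrays.

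**Figure D4:**
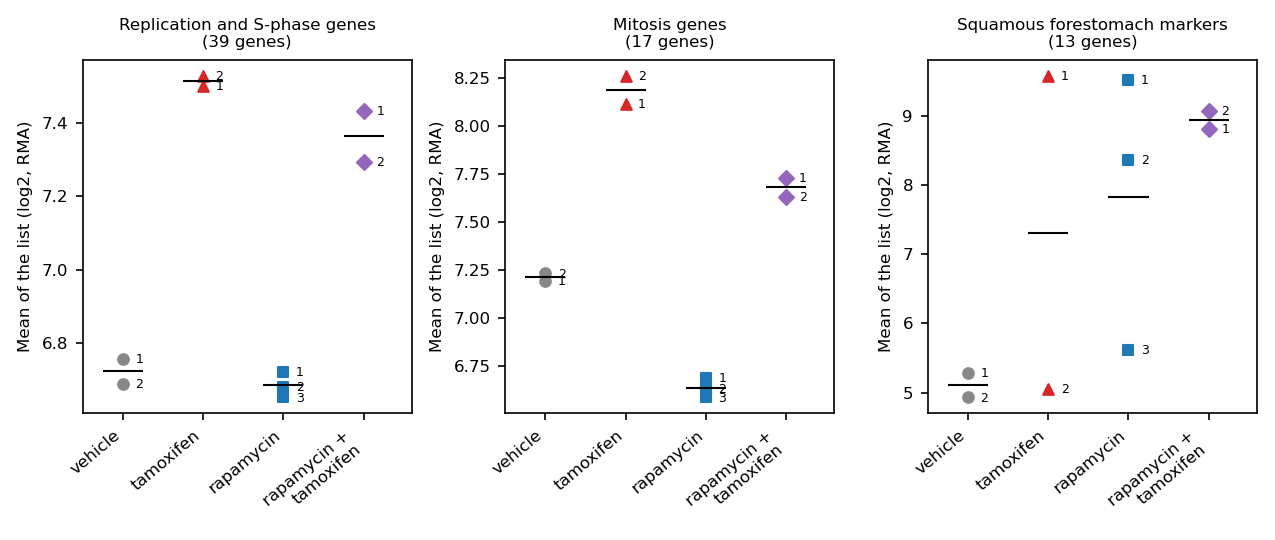
Mean log2 level of the 39 replication genes, 17 mitosis genes and 13 squamous forestomach markers (a panel each, with its own y scale) in the 9 whole-stomach arrays by treatment; each numbered point is 1 array and each bar a group mean. The replication genes lie at 6.65 to 6.76 without tamoxifen and 7.29 to 7.53 with it, and the squamous markers range from 4.93 to 9.57.

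Other cell types in the tissue also differed between arrays. The squamous keratin and cornification markers of the forestomach (13 genes) had mean levels of 5.29 and 4.93 with vehicle, 9.57 and 5.05 with tamoxifen, 9.52, 8.36 and 5.61 with rapamycin and 8.80 and 9.07 with both. The 2 tamoxifen arrays, 1 squamous-rich and the other not, had nearly the same replication mean, and the median difference of the members was 0.75 for the squamous-rich tamoxifen array over the first vehicle array and 0.88 for the other over the second. With the squamous mean as a covariate 8 members were called for tamoxifen against vehicle instead of 18, while calls among all genes went from 207 to 88 higher and the members' median from 0.83 to 0.82. For the combination against vehicle 0 members were called instead of 8, with 0 genes of all called higher instead of 91 and a median of 0.67 instead of 0.65. Parietal cell markers (11 genes) were lower where the members were higher: 10.28 and 10.33 with vehicle, 10.39, 10.65 and 10.42 with rapamycin, 8.99 and 9.62 with tamoxifen and 9.12 and 9.33 with both. Of the 11, 1 was called lower with tamoxifen and 7 with the combination against rapamycin (0.784% and 1.32% of all genes). In both contrasts all 11 estimates lay below 0 (53.6% and 52.4% of all genes), with medians of -0.92 and -1.12. The counts of calls therefore do not show a wider fall under rapamycin. Macrophage markers (9 genes) read 6.82 and 6.80 with vehicle, 7.17 and 7.73 with tamoxifen, 6.93, 6.89 and 6.73 with rapamycin and 7.01 and 7.23 with both. Chief cell markers (7 genes) had means between 9.94 and 10.18 without tamoxifen and between 8.92 and 9.40 with it. They did not all move 1 way. With tamoxifen against vehicle 4 were called lower and 1 higher (0.784% and 0.933% of all genes). In the combination against rapamycin 3 were called lower and 0 higher (1.32% and 1.13%), with 1 estimate above 0 (47.6%). Smooth muscle markers (6 genes) read 11.22 and 11.23 with vehicle, 11.26 and 11.38 with tamoxifen, 11.53, 11.44 and 11.47 with rapamycin and 10.98 and 10.77 with both. In the combination against rapamycin all 6 estimates lay below 0 (52.4% of all genes), and 2 genes were called lower (1.32%). Endothelial markers (6 genes) read 7.36 and 7.22 with vehicle, 6.98 and 7.13 with tamoxifen, 7.48, 7.57 and 7.19 with rapamycin and 6.67 and 6.99 with both, so the tamoxifen-treated arrays lay lower in each arm. Fibroblast markers (8 genes) ranged from 8.81 to 9.13 without tamoxifen and from 8.92 to 9.63 with it, pit mucous markers (5 genes) from 13.21 to 13.34 and from 13.05 to 13.29, neck mucous markers (6 genes) from 9.57 to 10.31 and from 9.69 to 10.44, and lymphocyte markers (8 genes) from 4.45 to 4.79 and from 4.34 to 4.83. The part of these cell types in the rise of the members was not tested.

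Between replicates the median absolute difference of the 39 genes was 0.21 for vehicle, 0.23 for tamoxifen, 0.18 for the combination and 0.13 to 0.16 for the rapamycin pairs. The same over all genes was 0.27, 0.26, 0.14 and 0.14 to 0.17, while the members' own median signed difference was -0.0035 between vehicle arrays, -0.02 between tamoxifen arrays, 0.16 between combination arrays and 0.03 to 0.08 between rapamycin arrays. These values describe the arrays and are no test of the median change. Across the 9 arrays the median Pearson correlation over the 741 pairs of members was 0.86, and 0.13 once each group's mean was taken out; the arrays share their group means, so the first value follows from the differences between groups. For 4 genes a second, dimmer probe set could be read. Rrm2's gave 0.53 without and 0.67 with rapamycin, and the lower estimate under rapamycin of the brighter set was not seen in it. Its mean level was 3.69, against 6.84 for the brighter set and below the median of every whole-stomach array. A set this dim cannot decide whether the lower estimate holds. Fen1's (mean level 4.96) gave 0.34 and -0.12, Pole's (3.88) 0.08 and 0.17, and Dut's (3.47) -0.02 and 0.11.

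In the cell fractions, with 1 array each and no test, the members tended to be lower in isolated parietal cells than in the remaining cells. Parietal cells are long-lived cells that have left the cell cycle. The median difference, parietal minus other, was -0.43, where that of all genes was 0.03, and 27 of 39 lay below 0 (44.1% of all genes). At least 1 log2 unit lower were 8 members (6.46% of all genes): Gins1 (-2.54), Mcm6 (-2.37), Prim2 (-2.09), Orc6 (-1.72), Mcm5 (-1.23), Rfc3 (-1.06), Pola1 (-1.06) and Rrm2 (-1.03, or -2.51 when its probe sets were averaged). Signal over background was not available for these arrays, and 13 of the 39 members lay below the median gene of the parietal array (3.97) and 8 below that of the other cells (3.99). Gins1 at 2.44 and Rrm2 at 2.66 in the parietal array were among them, so the size of such differences is uncertain. Pole2 alone was at least 1 unit higher, at 1.15 (6.32% of all genes). The remaining 30 members lay within 1 unit, Mcm4 at 0.01 and Cdc6 at 0.43 among them. Mitosis genes had a median of -1.35, with 12 of 17 at least 1 unit lower. Of the cell type markers, 9 of 11 parietal genes were at least 1 unit higher in the parietal array. At least 1 unit lower were 6 of 6 neck mucous, 5 of 5 pit mucous and 4 of 7 chief cell markers. Median differences were 0.13 for squamous, 0.08 for lymphocyte, 0.26 for smooth muscle and 0.29 for endothelial markers, and -0.19 for macrophage and -0.31 for fibroblast markers. Pit mucous markers still had a median level of 11.08 in the parietal array, so its purity is not shown.

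**Figure D5:**
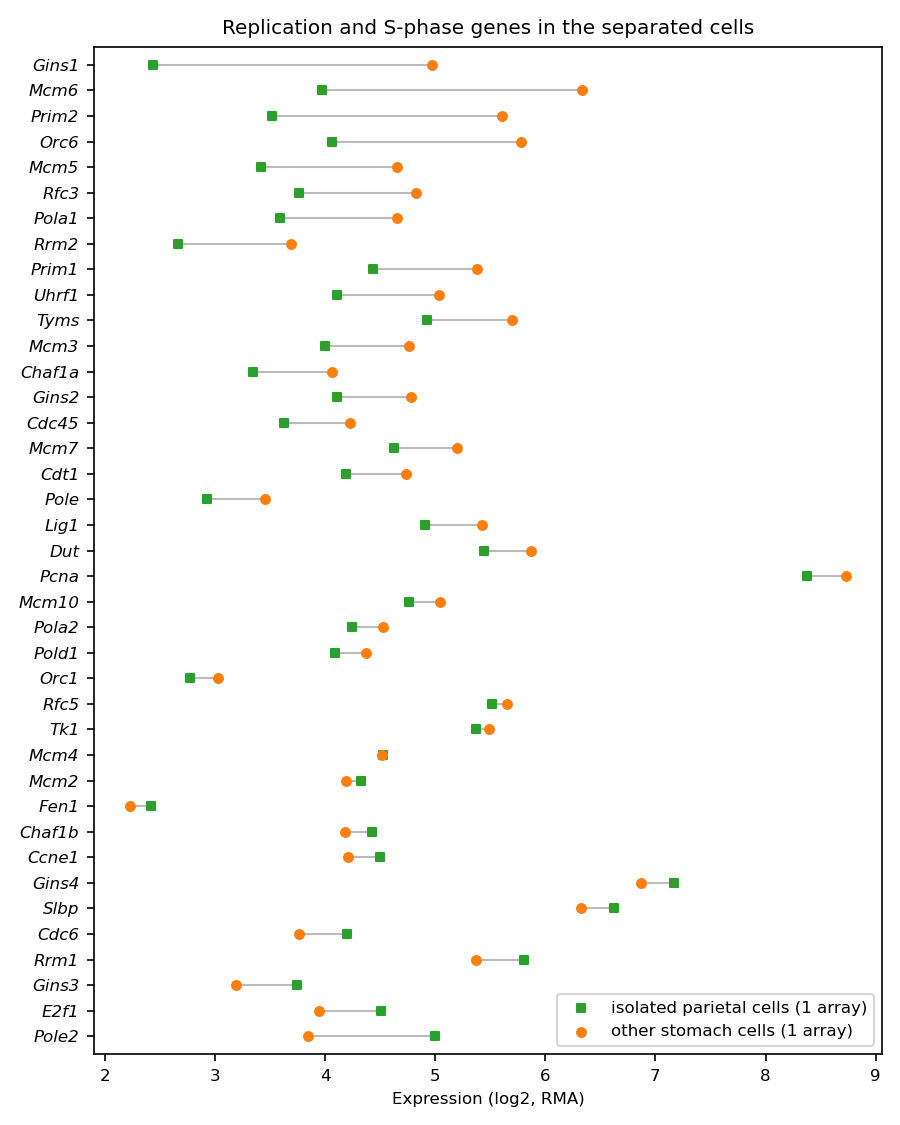
Log2 level (x axis) of each of the 39 genes in the isolated parietal cells (squares) and in the other stomach cells (circles), 1 array each and no error, ordered by the difference. The square lies to the left in 27 rows, farthest in Gins1 with a difference of -2.54, and Pole2 at 1.15 has the largest difference to the right.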

How the data were processed

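The authors deposited log2 values per probe set, made with RMA in Partek per the submitters' processing notes; no version, setting or genome build was named there. Of 41345 probe sets, 23521 named 1 gene symbol and gave 22180 genes, each from its brightest probe set. The platform's annotation supplied the symbols, and 23328 probe sets were matched by gene ID to RefSeq (GRCm38.p6) with 0 symbols changed. The 9 whole-stomach arrays entered a single limma model over all genes (limma 3.58.1, R 4.3.3), which gave each group its mean and pooled the variance (residual degrees of freedom 5, prior 3.86). A gene was called when its p, adjusted by Benjamini-Hochberg over all genes, was under 0.05. The procedure was also run on simulated data in which noise was independent between arrays. That run does not cover arrays that deviate together. Members, lists and tests were chosen with earlier results of these data known. Values in every array are printed for up to 3 members per role with the smallest p, and for the 3 lowest and 3 highest interactions. The number of arrays limits the precision. Alternatives changed the normalization, the dim-gene filter, the probe set rule, the variance model, the groups fitted, a squamous covariate, a replicate block and single arrays.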

Additional observations from a re-analysis of the deposited data

How the results depend on the processing

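No member was called lower in a tamoxifen contrast under the alternatives run. For the average over both arms, 31 members (719 of 22180 genes) became 27 to 29 without 1 rapamycin array (432 to 497). Calls were fewest without a combination array, among the members and among all genes, where that group was left with 1 array. The median of this average was 0.70 to 0.78 with any 1 array left out. Counts in single contrasts moved more, as did those of all genes, given in brackets. With tamoxifen against vehicle, 18 members called higher (207 of 22180 genes) became 28 among genes at or above the median level (414 of 11090), 0 when only the compared groups were fitted (0), 8 with the squamous covariate (88), 9 with the replicate block (73) and 4 to 9 without 1 array (40 to 128); the median of 0.83 became 0.74 after quantile normalization, 0.72 when probe sets were averaged per gene and 0.74 to 0.87 without 1 array. With the combination against rapamycin, 16 became 26 with the level filter (423 of 11090), 25 with only the compared groups (568), 5 with the replicate block (97) and 0 to 20 without 1 array (12 to 307; median 0.62 to 0.78). For the combination against vehicle, 8 (91) became 16 with the level filter (191 of 11090), 2 with only the compared groups (215), 0 with the squamous covariate (0), 2 with the replicate block (43) and 0 to 10 without 1 array (1 to 152; median 0.59 to 0.68). The median interaction was 0.014 after quantile normalization and -0.20 to -0.014 without 1 array, and the combination against tamoxifen -0.20 to -0.057. Reversed were Orc1 with tamoxifen (-0.009 without the second vehicle array, -0.069 without the first tamoxifen array, with all 9 such values from -0.069 to 0.19) and the Gins1 interaction (-0.074 without the first tamoxifen array, all from -0.074 to 0.53). The cause of these shifts was not tested. The level filter tests fewer genes, and left-out arrays leave fewer samples. A group left with 1 array was assumed to vary like the others. Deviations of same-numbered arrays correlated at 0.56 for vehicle and tamoxifen (0.50 over the members) and at -0.11 to 0.41 otherwise. The replicate numbers thus did not pair the samples across all groups, and they were not used as pairs in the main fit. Whether vehicle and tamoxifen arrays were paired by number is not known, and the replicate block was fitted over all groups together. A block with the numbers of combination and tamoxifen crossed, chosen after seeing the data, was fitted for the combination against tamoxifen only. It called 0 members and 0 of all genes, as the main fit of that contrast did, and says nothing about the tamoxifen contrasts.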
